A study of Mus musculus with 12 samples.

Results

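The genes described here write, copy, remove and feed back on DNA methylation: the methyltransferase genes Dnmt1, Dnmt3a and Dnmt3b, the maintenance factor gene Uhrf1, the dioxygenase genes Tet1, Tet2 and Tet3, and the isocitrate dehydrogenase genes Idh1 and Idh2. They were followed in 4 sorted populations of mouse bone marrow progenitors. Members were all probe sets whose only annotated gene symbol is one of these 9, which gave 23 of the 45037 probe sets on the array and 9 of the 18193 genes with such a probe set. All 23 carry the same symbol in RefSeq. Each population was measured on 3 Affymetrix Mouse Genome 430_2 arrays, 12 in all, with RNA from 80000 cells per population of female C57BL/6 mice aged 4 to 6 weeks.

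All 4 populations were lineage-negative, CD117+ and Sca-1-. Megakaryocyte-erythrocyte progenitors (MEP) were sorted as CD34-, CD16/32- and CD27-. Granulocyte-monocyte progenitors (GMP) were sorted as CD34+, CD16/32+ and CD27+. Common myeloid progenitors (CMP), sorted as CD34+ and CD16/32-, were split by the surface receptor CD27 into a CD27+ and a CD27- fraction. The labels name no transgene or treatment. The arrays of a population are labelled biological replicates, and whether they came from separate animals or pools is not stated, so the p-values measure the spread between these arrays. The deposited log2 values are centred on the median of each probe set over the 12 arrays. They can be compared between populations but not between genes, and a flat probe set may be either silent or evenly expressed.

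DNA methylation sits mainly on the cytosine of CG pairs. Dnmt3a and Dnmt3b encode the enzymes that place new marks, and Dnmt1 encodes the enzyme that copies marks onto the new strand after replication, guided to half-methylated sites by the Uhrf1 protein. The TET enzymes oxidise methylcytosine, which opens the way to its removal, and they need 2-oxoglutarate, which Idh1 makes in the cytosol and Idh2 in the mitochondria. Loss of Dnmt3a or Tet2 function in blood stem cells favours self-renewal and clonal expansion, and mutant IDH1 or IDH2 makes 2-hydroxyglutarate, which blocks TET enzymes, in myeloid leukaemia.

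The promoters of the members are shown first, because the strongest differences below fell on Dnmt3a, Idh1 and Idh2 together. RefSeq windows of GRCm38.p6, running from 250 bases before to 50 bases after a transcription start, were given for all 9 genes, 15 windows in all. Letters of 4 motif groups were searched on both strands: GAGGAAG for the myeloid factor PU.1, AGATAA or TGATAA for GATA factors, TTTGGCGC or TTTCGCGC for the cell cycle factors of the E2F family, and TGTGGT for RUNX factors. No searched motif contains another. The 5 windows printed here, 5′ to 3′ on the strand of the gene, are Dnmt3a at chr12:3806730-3807029 (+ strand, the first of its 3 windows), Idh1 at chr1:65186430-65186729 (- strand, the first of 2), Idh2 at chr7:80115301-80115600 (- strand), Dnmt1 at chr9:20952574-20952873 (- strand, the third of 3) and Uhrf1 at chr17:56304063-56304362 (+ strand, the second of 2). Capitals mark a motif match, and a window in lower case throughout has none.
Dnmt3a: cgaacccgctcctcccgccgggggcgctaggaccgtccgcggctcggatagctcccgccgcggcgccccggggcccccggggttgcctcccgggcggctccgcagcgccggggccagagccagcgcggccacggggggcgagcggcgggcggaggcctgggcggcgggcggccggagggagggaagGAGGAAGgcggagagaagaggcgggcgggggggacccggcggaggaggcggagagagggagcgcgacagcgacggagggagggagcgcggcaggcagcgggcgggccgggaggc
Idh1: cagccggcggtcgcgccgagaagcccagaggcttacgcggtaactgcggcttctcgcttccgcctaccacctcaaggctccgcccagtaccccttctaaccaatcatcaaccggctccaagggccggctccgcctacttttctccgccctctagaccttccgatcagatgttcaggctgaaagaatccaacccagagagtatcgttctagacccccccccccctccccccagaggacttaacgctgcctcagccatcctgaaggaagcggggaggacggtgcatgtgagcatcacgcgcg
Idh2: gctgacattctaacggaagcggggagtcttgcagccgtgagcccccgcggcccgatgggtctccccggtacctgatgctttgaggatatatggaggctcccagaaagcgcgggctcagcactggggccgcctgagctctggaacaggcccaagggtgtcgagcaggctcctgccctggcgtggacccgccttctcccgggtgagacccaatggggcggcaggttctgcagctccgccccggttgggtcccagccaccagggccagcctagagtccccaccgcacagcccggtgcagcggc
Dnmt1: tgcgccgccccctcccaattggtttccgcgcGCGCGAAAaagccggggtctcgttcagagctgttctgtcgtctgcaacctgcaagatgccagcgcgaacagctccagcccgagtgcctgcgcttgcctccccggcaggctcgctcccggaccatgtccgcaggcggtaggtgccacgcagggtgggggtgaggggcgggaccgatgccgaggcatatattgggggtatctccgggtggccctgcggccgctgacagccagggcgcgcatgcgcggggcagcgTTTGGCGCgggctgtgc
Uhrf1: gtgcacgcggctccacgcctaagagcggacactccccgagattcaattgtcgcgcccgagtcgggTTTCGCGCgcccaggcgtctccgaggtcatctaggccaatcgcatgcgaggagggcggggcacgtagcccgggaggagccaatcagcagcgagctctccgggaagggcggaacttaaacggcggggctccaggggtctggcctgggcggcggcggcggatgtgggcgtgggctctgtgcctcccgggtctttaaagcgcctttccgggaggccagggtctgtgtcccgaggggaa
The Dnmt3a window holds 46 CG pairs and is 82.3% G or C, the Idh1 window holds 23 and the Idh2 window 20, against a median of 7 CG pairs over the 32851 windows of 27025 genes. The Tet2 window held 57 CG pairs, the Dnmt3b window 30, the Tet3 window 22 and the Tet1 window 17. The 3 Dnmt1 windows held 2, 12 and 33, and the 2 Uhrf1 windows 12 and 33. GAGGAAG was present in 4 of the 15 windows, those of Dnmt3b, 1 of the Dnmt1 starts and 2 overlapping Dnmt3a starts that share the same match, and in 13.6% of all windows. An E2F motif was present in the Dnmt1 and Uhrf1 windows printed above and in 0.813% of all windows. The RUNX letters were in the other Uhrf1 window (16.8% of all windows), and the GATA letters, present in 18.6% of all windows, were in 0 of the 15. These matches describe letters in short windows, not binding.

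The members stood apart along the CD27 split. Within either side of it few probe sets passed, among the members as over the whole array. Between CD27+ CMP and GMP 1 of 23 member probe sets passed, against 3.04% of all. Between CD27- CMP and MEP 0 of 23 passed, against 0.0444% of all. Over the 4 populations 13 of the 23 probe sets passed the test for any difference (limma's moderated F, Benjamini-Hochberg adjusted p under 0.05 over all 45037 probe sets), against 17.4% of all probe sets. By the most variable probe set of each gene, 5 of the 9 genes passed (Dnmt3a, Dnmt3b, Tet1, Idh1 and Idh2), against 24.8% of all genes. The members varied more than most: their median range over the 12 arrays was 1.53 log2 against 0.462 over all probe sets. Of the 23, 3 spanned less than 0.5, as did 51.1% of all. The members were chosen with earlier results of these data known. Here and below, their shares beside those of all probe sets, many of them flat, are therefore descriptions and not a test of the group.

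**Figure D1:**
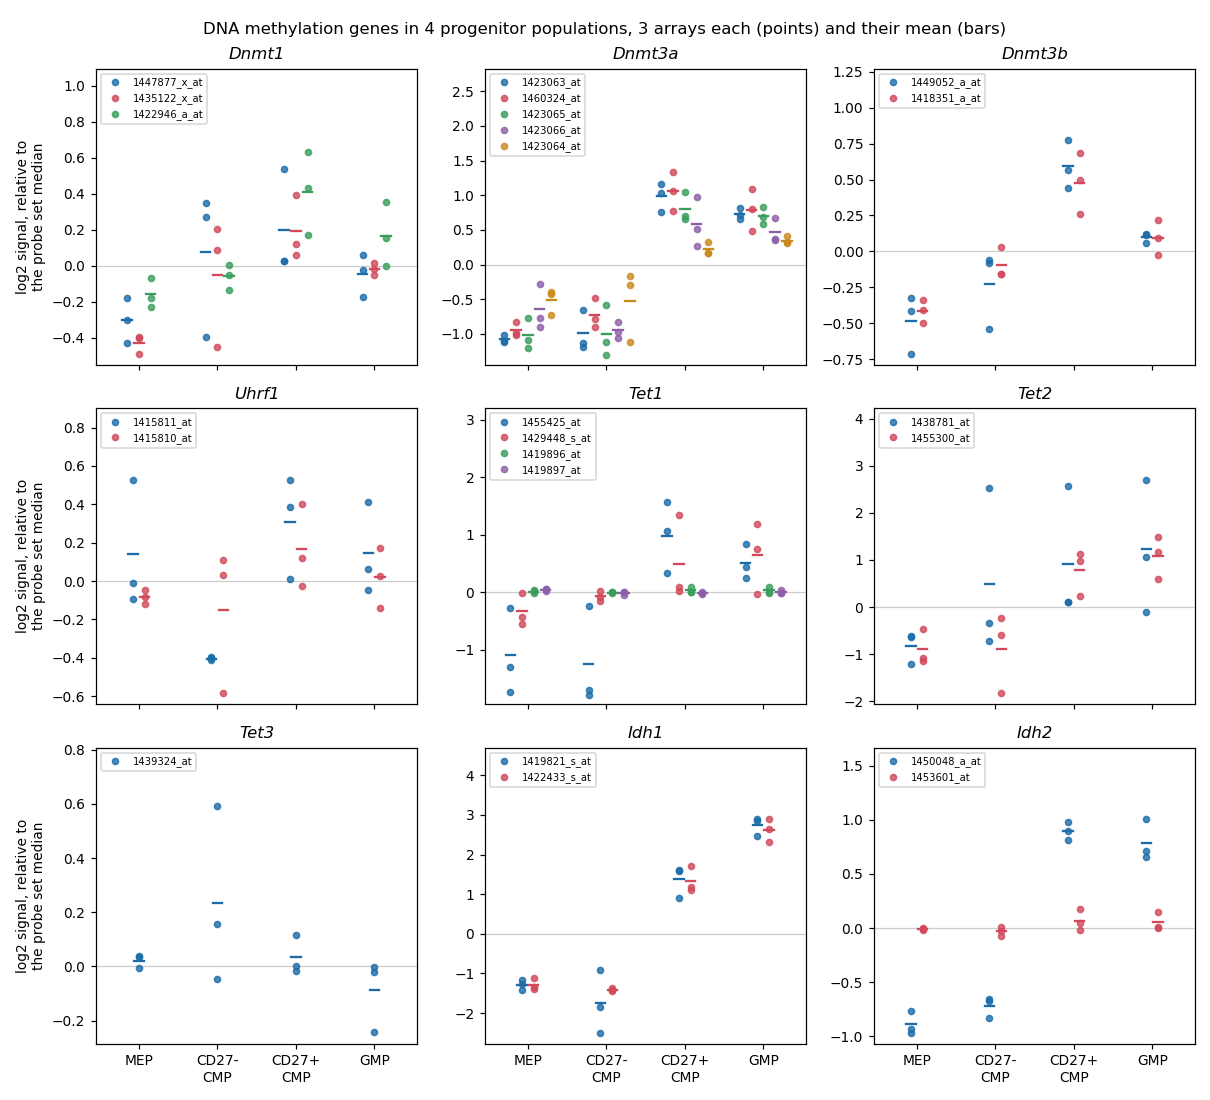
Centred log2 signal (vertical axis, a scale of its own in each panel) of the 23 probe sets in MEP, CD27- CMP, CD27+ CMP and GMP; points are arrays, 3 per population, short bars are their means, and colours are the probe sets of a gene. In the Dnmt3a, Idh1 and Idh2 panels the arrays of CD27+ CMP and GMP lie above those of MEP and CD27- CMP, except for the flat Idh2 probe set 1453601_at.

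Inside the CMP gate, the question is what CD27 separates among cells gated alike for the other surface markers. There 14 of 23 member probe sets were higher in CD27+ than in CD27- CMP and none was lower. Over all probe sets 7.65% were higher and 6.49% lower. By the most variable probe set, 6 of the 9 genes were higher (Dnmt3a, Dnmt3b, Uhrf1, Tet1, Idh1 and Idh2), against 11.3% of all genes. The median member difference was 0.71 log2 against -0.02 over all probe sets. In 15 of the 23 probe sets all 3 CD27+ CMP arrays lay above all 3 CD27- CMP arrays, as in 11.4% of all. The count of 14 fell to 9 when either CD27+ CMP replicate 3 or CD27- CMP replicate 1 was left out, and to 9 when only the 6 CMP arrays were fitted (adjusted p of the 5 lost calls 0.054 to 0.21). Between GMP and MEP 11 of 23 were higher in GMP and none was lower (7.54% and 7.27% of all probe sets), and the median member difference was 0.86 log2 against -0.04. By the most variable probe set 4 of the 9 genes were higher (Dnmt3a, Dnmt3b, Idh1 and Idh2), against 11% of all genes. In 16 probe sets all GMP arrays lay above all MEP arrays, as in 10.8% of all. Small shifts of the many flat probe sets enter these shares of array orders, and the median over all probe sets was negative in both comparisons. At an unadjusted p under 0.05 the counts were 14 higher and 0 lower in the CMP gate and 15 higher and 0 lower between GMP and MEP, against 22.9% and 24.3% of all probe sets in either direction.

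Cell type markers moved in both comparisons. In CD27+ against CD27- CMP all 8 granulocyte-monocyte markers (Mpo, Elane, Ctsg, Prtn3, Irf8, Cebpa, Csf1r and Fcgr3) were higher and 6 of 7 measured erythroid markers were lower, with Klf1 at -7.23 log2. The mean level of the granulocyte-monocyte markers lay between 2.59 and 3.36 in the CD27+ CMP arrays and between -3.10 and -2.59 in the CD27- CMP arrays, and their part in the member differences was not tested. Between GMP and MEP all 8 of these markers were higher and 6 of 7 erythroid markers lower. Both CMP fractions were gated as CD34+, yet Cd34 RNA was 7.32 log2 higher in CD27+ CMP (adjusted p = 8.3e-05), while CD27- CMP exceeded MEP, a CD34- population, by only 1.69 (adjusted p = 0.79). Both fractions were also gated as CD16/32-, yet RNA of the CD16/32 genes Fcgr3 and Fcgr2b was unequal. Their means were 2.20 and 3.38 in CD27+ CMP against -2.51 and -3.30 in CD27- CMP. Of markers of other cells, 1 of 4 for B cells (Cd79b), 2 of 4 for mast cells and basophils (Cpa3 and Mcpt8), 1 of 6 for macrophages (Cd68) and 2 of 7 for stroma and endothelium (Pecam1 and Pdgfrb) were higher in CD27+ CMP. In GMP against MEP 3 of 6 macrophage markers were higher (Cd68, Adgre1 and Vcam1), with Vcam1 at a mean of 5.09 in GMP and -0.01 in MEP. Of 5 measured megakaryocyte markers, 1 was lower in each comparison (Vwf, -1.82 and -2.26), and their mean level ran from 0.35 to 2.32 in the CD27- CMP arrays and from -0.16 to 0.95 in MEP. The part of these lists in the member differences was not tested. The mean level of the T and NK cell markers stayed between -0.03 and 0.09 on every array. In sorted bulk RNA, fewer cells that express a gene and less RNA of it per cell cannot be told apart.

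Dnmt3a, the de novo methyltransferase gene, was higher on the CD27+ side by all of its 5 probe sets, which derive from a shared source sequence and are not independent. Its most variable probe set, 1423063_at, read -1.11, -1.11 and -1.01 in MEP and -1.14, -0.66 and -1.18 in CD27- CMP. It read 1.04, 0.75 and 1.17 in CD27+ CMP and 0.81, 0.72 and 0.66 in GMP. The lowest array of the CD27+ populations thus lay above the highest of the CD27- populations. The log2 difference was 1.98 (SE 0.14, adjusted p = 1.4e-05 by limma) inside the CMP gate, a 3.94-fold difference, and 1.81 (SE 0.14, adjusted p = 2.1e-05), or 3.50-fold, between GMP and MEP. Probe sets 1460324_at, 1423065_at and 1423066_at gave 1.78, 1.80 and 1.54 in the CMP gate and 1.74, 1.72 and 1.12 between GMP and MEP.

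The fifth Dnmt3a probe set, 1423064_at, moved less. It read -0.72, -0.40 and -0.43 in MEP, -0.30, -0.17 and -1.11 in CD27- CMP, 0.17, 0.33 and 0.17 in CD27+ CMP and 0.41, 0.32 and 0.31 in GMP. The groups on either side of CD27 still did not overlap. Its difference of 0.75 in the CMP gate (adjusted p = 0.047) was lost on leaving out any array other than CD27- CMP replicates 2 and 3 (adjusted p 0.051 to 0.13). That call also ended under quantile normalization (adjusted p = 0.052), robust empirical Bayes (0.051) and with only the CMP arrays fitted (0.21). Its difference of 0.86 between GMP and MEP (adjusted p = 0.024) was lost on leaving out any of the 6 MEP and GMP arrays (0.051 to 0.088). By the mean of its 5 probe sets Dnmt3a differed by 1.57 in the CMP gate. Between CD27+ CMP and GMP 1423063_at differed by 0.25 (95% interval -0.07 to 0.58, adjusted p = 0.77), and between CD27- CMP and MEP by 0.09 (-0.24 to 0.41, adjusted p = 0.84).

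Dnmt3b, the other de novo enzyme gene, had its highest values in CD27+ CMP. Probe set 1449052_a_at read 0.57, 0.77 and 0.44 in CD27+ CMP and -0.08, -0.06 and -0.54 in CD27- CMP. It read 0.12, 0.12 and 0.06 in GMP and -0.71, -0.32 and -0.42 in MEP. Every CD27+ CMP array lay above every array of the other 3 populations. CD27+ CMP exceeded CD27- CMP by 0.82 (SE 0.15, adjusted p = 0.0045), a 1.77-fold difference, and MEP by 1.08 (adjusted p = 7.4e-04). GMP exceeded MEP by 0.58 (adjusted p = 0.026), a call that ended on leaving out MEP replicate 1 or 3 or any GMP array (0.054 to 0.092). The second probe set, 1418351_a_at, gave 0.58 in the CMP gate (adjusted p = 0.0061, and 0.054 with only the CMP arrays fitted), 0.51 between GMP and MEP (adjusted p = 0.011, and 0.067 with array weights) and 0.89 between CD27+ CMP and MEP (adjusted p = 3.5e-04). The excess of CD27+ CMP over GMP, 0.50 and 0.38 for the 2 probe sets, did not pass (adjusted p = 0.16 and 0.14), although their arrays did not overlap.

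The maintenance genes each had 1 probe set that passed in the CMP gate. For Dnmt1, probe set 1422946_a_at read 0.17, 0.63 and 0.43 in CD27+ CMP and -0.05, 0.00 and -0.13 in CD27- CMP. The difference of 0.47 (SE 0.12, adjusted p = 0.029) is a 1.39-fold change. The call ended on leaving out CD27+ CMP replicate 2 or 3 or any CD27- CMP array (0.058 to 0.088), and with only the CMP arrays fitted (adjusted p = 0.099). GMP read 0.00, 0.15 and 0.35 and MEP -0.23, -0.18 and -0.07 there, a difference of 0.33 that did not pass (adjusted p = 0.12). The other Dnmt1 probe sets, 1435122_x_at and 1447877_x_at, differed by 0.24 and 0.12 in the CMP gate (adjusted p = 0.42 and 0.76), where their arrays overlapped. Between CD27+ CMP and MEP 1435122_x_at differed by 0.62 (adjusted p = 0.022), which did not hold without CD27+ CMP replicate 2 or any of the MEP arrays (0.057 to 0.078). The mean of the 3 probe sets differed by 0.28 in the CMP gate and did not pass (adjusted p = 0.21).

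Uhrf1, whose protein recruits Dnmt1 to newly replicated DNA, gave a difference in the CMP gate by 1 of its 2 probe sets. Probe set 1415811_at read -0.40, -0.41 and -0.40 in CD27- CMP, 0.01, 0.53 and 0.38 in CD27+ CMP, -0.09, -0.01 and 0.52 in MEP and -0.05, 0.06 and 0.41 in GMP. The CD27- CMP arrays were the lowest of all 12. Their difference from CD27+ CMP, 0.71 (SE 0.19, adjusted p = 0.036), was lost on leaving out GMP replicate 2, CD27+ CMP replicate 2 or 3 or any CD27- CMP array (0.055 to 0.12), and under quantile normalization (adjusted p = 0.064). Between GMP and MEP the difference was 0.00 (95% interval -0.43 to 0.43, adjusted p = 0.99). The test of unequal differences in the 2 comparisons gave 0.71 and did not pass (adjusted p = 0.57). Probe set 1415810_at differed by 0.31 in the CMP gate (adjusted p = 0.37), and its arrays overlapped.

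Genes of DNA replication, with which Dnmt1 and Uhrf1 expression is tied in cycling cells, passed at shares near those of all genes. Of 18 measured, 2 were higher and 2 lower in CD27+ than in CD27- CMP, against 11.3% and 9.31% of all genes, and 3 were lower in GMP than in MEP, against 10.1%. In the CMP gate the helicase gene Mcm3 (0.80) and the replication complex gene Gins1 (0.53) were higher, and the cyclin gene Ccne1 (-3.11) and the origin licensing gene Cdc6 (-0.93) were lower. Between GMP and MEP the lower genes were Ccne1 (-3.42), Cdc6 (-1.04) and Cdt1 (-0.46). Mcm3 and Cdt1 are named after their values were seen, and their calls ended on leaving out any of 7 (0.051 to 0.13) and any of 9 (0.051 to 0.13) of the 12 arrays. Both calls also ended under quantile normalization, and that of Cdt1 with centring of arrays and with GMP and MEP fitted alone. With only the CMP arrays fitted neither Mcm3 nor Gins1 passed (adjusted p = 0.11 and 0.12), and neither passed by the mean of its probe sets. Rrm2, a subunit gene of ribonucleotide reductase, differed by -0.81 between CD27+ CMP and GMP (adjusted p = 0.011), though not by the mean of its 3 probe sets (-0.59, adjusted p = 0.072) or with these populations fitted alone (adjusted p = 0.14).

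Among the eraser genes Tet1 and Tet2 each had 1 probe set that was higher on the CD27+ side, and their arrays scattered widely. Tet1 probe set 1455425_at read 1.56, 0.33 and 1.06 in CD27+ CMP and -1.78, -1.70 and -0.24 in CD27- CMP. It read 0.84, 0.43 and 0.24 in GMP and -0.28, -1.30 and -1.73 in MEP, so the CD27+ and CD27- sides did not overlap. The difference in the CMP gate was 2.23 (SE 0.52, adjusted p = 0.018), or 4.68-fold with a 95% interval of 1.06 to 3.39 log2. It did not pass without CD27+ CMP replicate 1 or 3 or CD27- CMP replicate 1 or 2 (0.059 to 0.07), or with only the CMP arrays fitted (0.081). Between GMP and MEP the difference of 1.61 missed the threshold (adjusted p = 0.074), and it passed without MEP replicate 1 (adjusted p = 0.038) or CD27- CMP replicate 3 (adjusted p = 0.034).

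The other 3 Tet1 probe sets did not pass in either comparison. Probe set 1429448_s_at read 1.34, 0.09 and 0.02 in CD27+ CMP against -0.16, -0.09 and 0.02 in CD27- CMP, and 1.19, 0.75 and -0.03 in GMP against -0.55, -0.44 and -0.02 in MEP. Single arrays stood far above the others there. Probe sets 1419896_at and 1419897_at spanned 0.11 and 0.10 log2 over all 12 arrays and carry no information on direction.

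Tet2, the TET gene most often mutated in myeloid neoplasms, was read by 2 probe sets, of which 1 passed in the CMP gate. Probe set 1455300_at read 0.98, 0.23 and 1.13 in CD27+ CMP, -1.84, -0.59 and -0.23 in CD27- CMP, 1.48, 1.17 and 0.59 in GMP and -0.47, -1.14 and -1.08 in MEP. Every CD27+ array was above every CD27- array. The differences were 1.67 in the CMP gate (SE 0.44, adjusted p = 0.033) and 1.98 between GMP and MEP (SE 0.44, adjusted p = 0.013). The first was lost without GMP replicate 2, CD27+ CMP replicate 1 or 3 or CD27- CMP replicate 1 or 2 (0.052 to 0.12) and with only the CMP arrays fitted (adjusted p = 0.14). The second was lost without MEP replicate 2 or GMP replicate 1 (0.054 to 0.057). The more variable probe set 1438781_at read 2.57, 0.10 and 0.10 in CD27+ CMP, -0.73, -0.35 and 2.54 in CD27- CMP, 2.70, -0.10 and 1.06 in GMP and -0.62, -0.63 and -1.21 in MEP. Lone high arrays lay in 3 populations, and its differences of 0.44 and 2.05 did not pass (adjusted p = 0.82 and 0.27).

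Tet3, the third dioxygenase gene, had a single probe set and passed in no comparison. It read 0.00, 0.12 and -0.02 in CD27+ CMP, 0.16, 0.59 and -0.05 in CD27- CMP, 0.00, -0.24 and -0.02 in GMP and 0.04, 0.03 and -0.01 in MEP. Its difference was -0.20 in the CMP gate (95% interval -0.52 to 0.12) and -0.11 between GMP and MEP (-0.43 to 0.21). Both intervals include 0 and reach to -0.43 or lower.

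**Figure D2:**
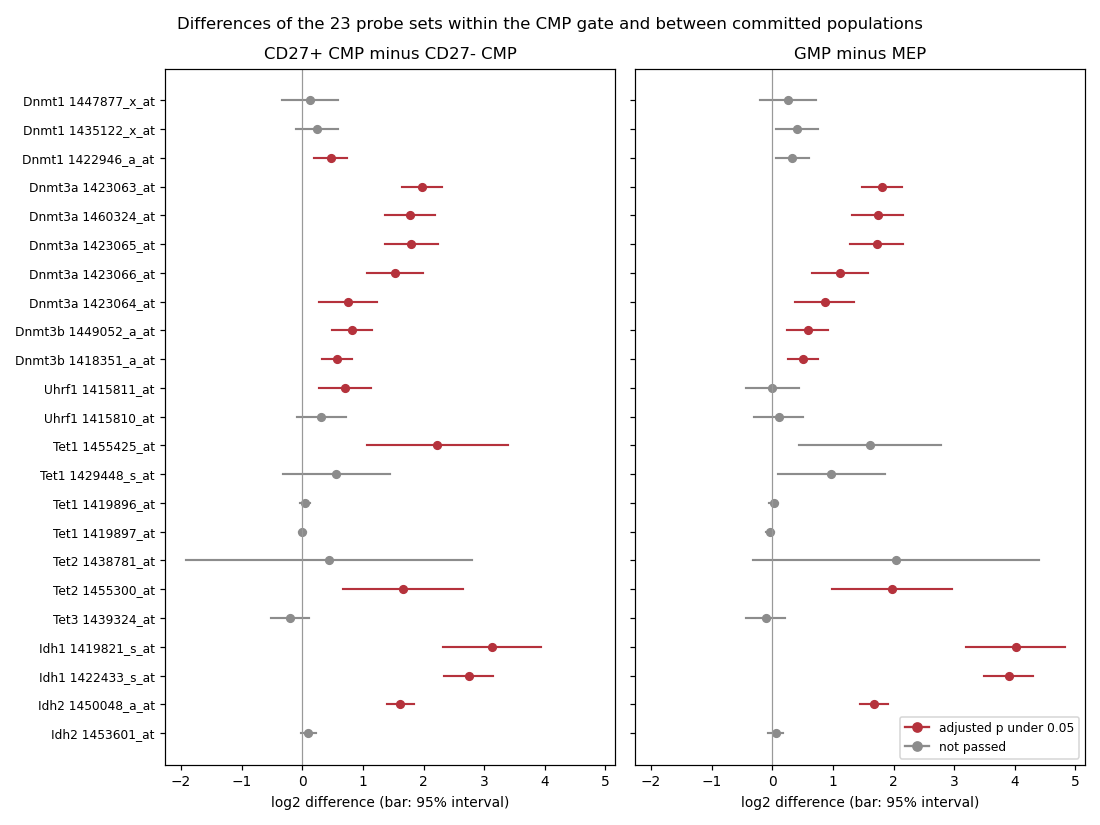
Log2 difference (horizontal axis) of each of the 23 probe sets for CD27+ minus CD27- CMP on the left and GMP minus MEP on the right; points are differences of 3-array means, bars are 95% intervals, and red marks an adjusted p under 0.05. All red points lie to the right of 0. The intervals of both Tet2 probe sets and of Tet1 1455425_at are the widest, while those of Tet1 1419896_at and 1419897_at are short.

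Idh1, the cytosolic source of 2-oxoglutarate, showed the largest differences of the members. Probe set 1422433_s_at read -1.11, -1.34 and -1.40 in MEP, -1.43, -1.44 and -1.37 in CD27- CMP, 1.70, 1.11 and 1.18 in CD27+ CMP and 2.89, 2.65 and 2.31 in GMP. CD27+ CMP lay between the CD27- populations and GMP without overlap. The log2 difference was 2.74 (SE 0.18, adjusted p = 6.5e-06) in the CMP gate, or 6.70-fold, and 3.90 (SE 0.18, adjusted p = 5.8e-07) between GMP and MEP, or 14.9-fold. The second probe set, 1419821_s_at, read 1.62, 0.91 and 1.58 in CD27+ CMP against -2.50, -1.85 and -0.91 in CD27- CMP, and 2.85, 2.88 and 2.46 in GMP against -1.17, -1.42 and -1.25 in MEP. Its differences were 3.13 and 4.01 (adjusted p = 2.6e-04 and 4.5e-05).

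Idh1 was also the member that separated CD27+ CMP from GMP. The GMP arrays exceeded the CD27+ CMP arrays by probe set 1422433_s_at, with a difference of -1.29 log2 for CD27+ CMP minus GMP (SE 0.18, adjusted p = 0.0045). It was the 1 member probe set of 23 to pass there, against 3.04% of all probe sets (1.47% higher and 1.57% lower). Fitted on the 6 arrays of these populations alone it did not pass (adjusted p = 0.098). For 1419821_s_at the difference of -1.36 did not pass (adjusted p = 0.1), though the arrays did not overlap, and it passed without CD27- CMP replicate 1 (adjusted p = 0.042) or 3 (adjusted p = 0.021). Whether the CMP difference is smaller than that between GMP and MEP was tested on all members, with 0 of 23 passing by limma, against 1.1% of all probe sets. At an unadjusted p under 0.05 there were 2, against 6.45% of all. For 1422433_s_at that test gave -1.16 (SE 0.25, adjusted p = 0.089). It passed without GMP replicate 3 (adjusted p = 0.045) and without CD27+ CMP replicate 1 (adjusted p = 0.023). It also passed with replicate number as a block (adjusted p = 0.048), under the range filter (adjusted p = 0.049) and with array weights (adjusted p = 0.034), whose estimate did not converge. It passed under no other alternative run on single probe sets, and the mean of both Idh1 probe sets did not pass (-1.02, adjusted p = 0.22).

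Idh2, the mitochondrial counterpart, differed by CD27 and not between the populations on either side. Probe set 1450048_a_at read 0.81, 0.98 and 0.90 in CD27+ CMP and 0.65, 0.71 and 1.00 in GMP, against -0.67, -0.65 and -0.83 in CD27- CMP and -0.97, -0.93 and -0.76 in MEP. The difference was 1.62 (SE 0.10, adjusted p = 4.4e-06), or 3.07-fold, in the CMP gate and 1.68 (SE 0.10, adjusted p = 2.8e-06), or 3.20-fold, between GMP and MEP. Between CD27+ CMP and GMP it was 0.11 (95% interval -0.11 to 0.33) and between CD27- CMP and MEP 0.17 (-0.05 to 0.39), so differences above 0.39 lie outside both intervals. The second probe set, 1453601_at, spanned 0.25 log2 over all arrays and did not pass. In the CMP gate and between GMP and MEP, the calls of both Idh1 probe sets and of 1450048_a_at held under each of the 19 alternatives run on single probe sets.

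The order of the 4 populations was the same for several members up to the neighbours that could not be separated. For Dnmt3a, Idh2, and the Tet1 and Tet2 probe sets that passed, CD27+ CMP and GMP formed an upper pair and CD27- CMP and MEP a lower pair, with no difference inside a pair past the threshold. For Tet1 the differences of GMP from MEP and from CD27- CMP missed the threshold as well (adjusted p = 0.074 and 0.055). For Idh1 the order was GMP, then CD27+ CMP, then MEP and CD27- CMP together. For Dnmt3b it was CD27+ CMP, GMP, CD27- CMP and MEP by the mean, with a difference past the threshold only for CD27+ CMP against each of the CD27- populations and for GMP against MEP. Between CD27- CMP and MEP 0 of 23 probe sets passed by limma and 3 had an unadjusted p under 0.05, against 0.0444% and 5.41% of all probe sets. Those 3 were Dnmt1 1435122_x_at (0.38), Dnmt3b 1418351_a_at (0.32) and Uhrf1 1415811_at (-0.54).

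Across the gates, 14 of 23 probe sets were higher in CD27+ CMP than in MEP and none lower (7.67% and 8.34% of all), and 9 were lower and none higher in CD27- CMP than in GMP (7.9% and 6.3% of all). At an unadjusted p under 0.05, 15 were higher in the first comparison and 0 lower (28.6% of all probe sets in either direction), and in the second 12 passed, of which 1 was higher (22.7% of all). These comparisons share arrays with those above. Small shifts of the many flat probe sets enter such array orders: every CD27+ CMP array lay below every MEP array in 45.4% of all probe sets, although 8.34% passed as lower. With the 6 CD27+ arrays set against the 6 CD27- arrays, 13 of 23 were higher and none lower (10.3% and 11.2% of all). In 11 of the 23 every CD27+ array lay above every CD27- array, as in 6.9% of all probe sets. They were the 5 of Dnmt3a, both of Idh1, 1 each of Dnmt3b, Tet1, Tet2 and Idh2. The differences were 3.32 for Idh1 1422433_s_at, 1.65 for Idh2 1450048_a_at, 1.89 for Dnmt3a 1423063_at, 1.92 for Tet1 1455425_at (adjusted p = 0.004), 1.82 for Tet2 1455300_at (adjusted p = 0.0021) and 0.40 for Dnmt1 1422946_a_at (adjusted p = 0.0078).

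The wider methylation machinery was read from 6 lists with 55 genes analysed here, each by its most variable probe set. As a whole it did not follow the members. Of the 55 genes 18 passed over the 4 populations, against 24.8% of all genes. In CD27+ against CD27- CMP 9 were higher and 7 lower, against 11.3% and 9.31% of all genes, and in GMP against MEP 6 were higher and 8 lower, against 11% and 10.1%. The lists differed in which genes moved.

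Partners of maintenance methylation gave 1 gene over the 4 populations out of 8, against 24.8% of all genes. That was Dmap1, which encodes a protein that binds Dnmt1. It read 0.47, 0.44 and 0.28 in CD27- CMP against -0.87, -0.51 and -0.44 in CD27+ CMP, and 0.31, 0.49 and 0.78 in MEP against -0.85, -0.70 and -0.28 in GMP. Its difference was -1.01 in the CMP gate (adjusted p = 0.0037) and -1.14 between GMP and MEP (adjusted p = 0.0016), the opposite sign to the members. Zbtb24, a zinc finger gene needed for methylation of satellite repeats and named after its value was seen, was higher by 0.81 in CD27+ CMP (adjusted p = 0.048). That call ended on leaving out any of 9 of the 12 arrays (0.053 to 0.16). It also ended under quantile normalization, centring of arrays and robust empirical Bayes, and with only the CMP arrays fitted.

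Base excision repair and Gadd45 genes act after TET oxidation or in other routes of demethylation. Of 13 such genes 7 passed over the 4 populations, the most of any of these lists, against 24.8% of all genes. Gadd45b, a stress-inducible gene linked to active demethylation, read 2.26, 2.12 and 1.67 in CD27+ CMP and -2.03, -2.04 and -1.67 in CD27- CMP. It read 4.02, 4.05 and 3.52 in GMP and -2.00, -2.02 and -1.72 in MEP. The difference was 3.94 (adjusted p = 1.1e-06) in the CMP gate and 5.78 (adjusted p = 8.7e-08) between GMP and MEP. Gadd45a ran the other way, at -2.43 in the CMP gate (adjusted p = 0.0065) and -2.36 between GMP and MEP (adjusted p = 0.0073), the latter not with GMP and MEP fitted alone (adjusted p = 0.067).

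Of the glycosylase genes in that list, Neil3, which removes oxidised bases, was higher by 1.17 in CD27+ CMP (adjusted p = 0.0058) and by 0.78 in GMP (adjusted p = 0.044). The second call ended on leaving out any of 9 of the 12 arrays (0.053 to 0.16). It also ended with centring of arrays, with GMP and MEP fitted alone and by the mean of its probe sets. Mbd4, Ung and Neil1, named after their values were seen, were higher in CD27+ CMP by 1.17, 0.57 and 1.08. The Mbd4 call ended without CD27+ CMP replicate 1 or 3 (adjusted p = 0.05) and with only the CMP arrays fitted (adjusted p = 0.11). Ung also passed between GMP and MEP at 0.42 (adjusted p = 0.042), but not on leaving out any of 10 arrays (0.058 to 0.16) or with replicate number as a block (adjusted p = 0.082). That Ung difference did not pass under the range filter or with GMP and MEP fitted alone either. The DNA ligase gene Lig3 was lower in CD27+ CMP (-1.26, adjusted p = 0.012).

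Of 4 TET partner genes, Cxxc5, a CXXC-domain gene whose protein binds TET2, passed over the 4 populations, against 24.8% of all genes. It read 2.45, 2.51 and 2.44 in CD27+ CMP against -0.63, -0.24 and -1.21 in CD27- CMP, and 0.94, 0.24 and 1.52 in GMP against -1.64, -1.85 and -0.54 in MEP. It was higher by 3.16 in the CMP gate (adjusted p = 6.1e-04) and by 2.24 in GMP over MEP (adjusted p = 0.0047). Its CD27+ CMP arrays lay above all GMP arrays, and that difference of 1.56 did not pass (adjusted p = 0.1). It passed in 3 of 20 alternatives: the range filter, the mean of its probe sets, and array weights, whose estimate did not converge.

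Of 7 readers of methylated CG pairs, Mbd2 and Zbtb4 passed over the 4 populations, against 24.8% of all genes. Mbd2 was lower in GMP than in MEP (-1.29, adjusted p = 0.014), a call that ended without MEP replicate 1 or GMP replicate 2 (0.052 to 0.054), and differed by -0.64 in the CMP gate (adjusted p = 0.23). Its other probe set had means of 0.75 in MEP, 0.61 in CD27- CMP, -0.60 in CD27+ CMP and -0.47 in GMP. The mean of both passed in the CMP gate (-0.93, adjusted p = 0.0033). By its most variable probe set, Zbtb4 had its highest mean in CD27- CMP (0.70 ± 0.35, SD, n = 3). The means were 0.18 ± 0.23 in CD27+ CMP, -0.09 ± 0.15 in MEP and -0.20 ± 0.09 in GMP. Its difference in the CMP gate, -0.52, did not pass (adjusted p = 0.096). The other Zbtb4 probe sets did not pass the F test (adjusted p = 0.51, 0.64 and 0.82). In the first of these the mean was 0.36 in both CD27- CMP and MEP.

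The methyl donor cycle supplies S-adenosylmethionine to the methyltransferases. Of its 10 genes 4 passed over the 4 populations, against 24.8% of all genes, and these 4 split in direction. Shmt1, the cytosolic serine hydroxymethyltransferase gene, was higher by 2.21 in CD27+ CMP (adjusted p = 0.0013) and by 2.34 in GMP (adjusted p = 8.5e-04). Mthfd1, a folate enzyme gene, was lower in both comparisons, at -2.17 and -2.25 (adjusted p = 3.1e-05 and 2.1e-05), and Mtrr, which keeps methionine synthase active, at -1.44 and -1.74 (adjusted p = 1.7e-04 and 4.4e-05). Mat2b, a subunit gene of the enzyme that makes S-adenosylmethionine, was lower too, at -0.53 and -0.52 (both adjusted p = 0.043). The Mat2b calls ended on leaving out any of 10 and of 9 of the 12 arrays (0.054 to 0.14), and with replicate number as a block (adjusted p = 0.068 between GMP and MEP). Both also ended under quantile normalization and centring of arrays, and the first with only the CMP arrays fitted.

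In 2-oxoglutarate metabolism 3 of 13 genes passed over the 4 populations, near the 24.8% of all genes. Glud1, the mitochondrial glutamate dehydrogenase gene that yields 2-oxoglutarate from glutamate, read 1.06, 0.85 and 0.99 in CD27+ CMP and 0.99, 0.79 and 0.87 in GMP, against -1.12, -0.79 and -1.12 in CD27- CMP and -1.01, -1.12 and -1.22 in MEP. It was higher by 1.98 in CD27+ CMP (adjusted p = 1.5e-06) and by 2.00 in GMP (adjusted p = 1.1e-06). Idh3b, a subunit gene of the NAD-dependent isocitrate dehydrogenase of the citric acid cycle, was lower in both comparisons, at -0.36 and -0.40 (adjusted p = 0.016 and 0.0084), the opposite sign to Idh1 and Idh2. The first of these ended without CD27+ CMP replicate 1 or 3 (0.052 to 0.06). Sdhb, a succinate dehydrogenase subunit gene, was lower in GMP (-0.67, adjusted p = 0.02). That call ended without MEP replicate 2 or 3 or GMP replicate 1 or 2 (0.057 to 0.079), and with GMP and MEP fitted alone.

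**Figure D3:**
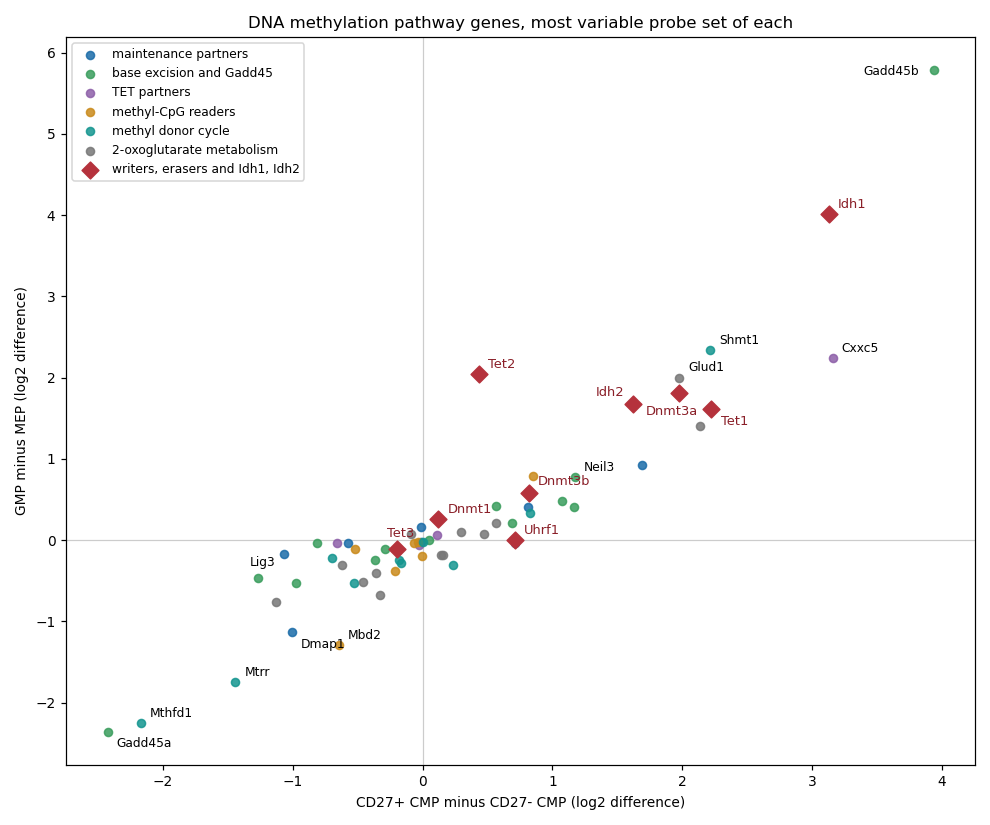
Log2 difference of CD27+ minus CD27- CMP (horizontal axis) against that of GMP minus MEP (vertical axis) for the 9 members (red diamonds) and the 55 other genes of DNA methylation (circles, coloured by list), each by its most variable probe set; labels on circles mark genes past the F test with wide population means. Idh1, Idh2, Dnmt3a, Tet1 and Gadd45b lie in the upper right, Gadd45a and Mthfd1 in the lower left, and the Tet2 point is the probe set that passed in neither comparison.

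The genes most like the members over the 12 arrays were sought among 7991 candidates that spanned at least 1 log2, by Pearson's r as a description. Dnmt3a (1423063_at) was followed most closely by Itgal, an integrin gene of leukocytes (r = 0.993), Glud1 (0.992) and Sft2d2 (0.992), with 517 candidates above 0.95. Idh2 was followed by Mapkapk2, a stress-activated kinase gene (0.996), Mpnd (0.996) and Rogdi (0.995), with 635 above 0.95. Idh1 (1419821_s_at) was followed by the amino acid transporter gene Slc36a4 (0.995), the clathrin adaptor gene Ap3s1 (0.988) and the sorting nexin gene Snx4 (0.988), with 211 above 0.95. Slc36a4 shared its steps, at -1.36 in MEP, -1.73 in CD27- CMP, 1.34 in CD27+ CMP and 2.72 in GMP.

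Dnmt3b and Tet1 had fewer close companions. Dnmt3b (1449052_a_at) was followed by the TGF-beta binding protein gene Ltbp3 (0.976), Nudt16 (0.976) and the transcription factor gene Hes6 (0.975), with 12 candidates above 0.95. The Ltbp3 means were -1.66 in MEP, -0.79 in CD27- CMP, 0.62 in GMP and 1.61 in CD27+ CMP. Tet1 (1455425_at) was followed by the TGF-beta receptor gene Tgfbr1 (0.976), Zscan26 (0.974) and Rfx3 (0.967), with 10 above 0.95. All points share the same 12 arrays and the same split by CD27. Within genes, probe sets correlated with r of 0.98 for Idh1, 0.95 for Dnmt3b and 0.84 to 0.98 over 10 pairs for Dnmt3a, but 0.62 for Tet2, 0.61 for Idh2, 0.47 for Uhrf1 and -0.38 to 0.66 for Tet1.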

How the data were processed

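Gene expression was measured on 12 arrays, 3 for each of 4 sorted populations. RNA was extracted with Trizol and RNeasy Micro columns and labelled with biotin, per the labels' protocols. The authors deposited log2 values that they normalized with GCRMA, as named without a version by the submitters' processing notes. No source used here states the log base, and log2 is taken as the usual GCRMA scale. The median of every probe set over the 12 arrays lies within 5e-07 of 0, so absolute signal is lost, no filter on dim signal was possible, and folds with 1 group near background are uncertain. The annotation gave 1 symbol to 34945 probe sets, several to 932 and none to 9160, and only the first kind was named.

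Populations were compared with limma 3.58.1 under R 4.3.3: 1 mean per population, all 12 arrays in a single fit, contrasts and a moderated F test, default empirical Bayes (prior degrees of freedom 0.992), two-sided, with Benjamini-Hochberg adjustment over all 45037 probe sets and a threshold of 0.05. The 95% intervals use the t quantile of that fit. Precision is limited by the number of arrays: the median SE of a member difference was 0.18 log2. In simulated data over 45037 probe sets, normal noise had the spread of each probe set, and 100 changes of each size were added in GMP alone. For GMP minus MEP 71 of 100 changes of 1 log2 and 88 of 100 of 2 log2 were recovered, with 12 false calls. In the real data 14.8% of probe sets passed there, a far larger share, so these rates need not hold for them. Array medians ran from -0.0267 to 0.0549. The SD of the difference between an array and another of its population was taken over the 15263 probe sets that spanned at least 1 log2. Its median for each array ran from 0.433 to 0.755. Deviations from the population means correlated between same-numbered arrays in all 3 pairs of MEP and GMP (r from 0.27 to 0.58) and of GMP and CD27+ CMP (0.23 to 0.57). They did so above 0.1 in 2 of 3 pairs of MEP and CD27+ CMP, and in 1 of 9 pairs with CD27- CMP. This pairing comes from the values, since the labels give only numbers. For MEP against GMP, GMP against CD27+ CMP and MEP against CD27+ CMP the fit with replicate number as a block is therefore given where it changed a call.

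The members and gene lists were chosen with earlier results of these data known. Named were all members, up to 4 genes per list past the F test with the widest population means, the 3 genes most like each member past the F test, and the fixed cell type markers; others are said to be named after their values were seen. Some genes of the lists are not reported here. Alternatives were quantile normalization, centring of arrays, array weights, robust empirical Bayes, replicate number as a block, a range filter of 0.5 log2, fits on the compared populations, the mean of probe sets per gene and leaving out each array.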

Additional observations from a re-analysis of the deposited data

Results flagged for a closer look

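Gadd45b differed more between GMP and MEP (5.78 log2) than between the CMP fractions (3.94 log2). The test of that inequality gave -1.84 (SE 0.28, adjusted p = 0.015 by limma, 3 arrays per population). The GMP arrays (4.02, 4.05 and 3.52) lay above the CD27+ CMP arrays (2.26, 2.12 and 1.67), while CD27- CMP and MEP both had a mean of -1.92. The call ended without MEP replicate 2 (adjusted p = 0.053), with replicate number as a block (adjusted p = 0.053) and for the mean of its 3 probe sets (-1.01, adjusted p = 0.099).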

How the results depend on the processing

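Of the 62 member differences that passed, 44 kept their direction and passed under every alternative run on single probe sets (18 or 19 for each), none of the 62 reversed, and 87 of 1165 checks lost a call, 68 of these on leaving out an array. Of 40 differences of the other methylation and replication genes that passed, 25 did so under every alternative, and 109 of 799 checks lost a call. Leaving out each array in turn gave 10 to 14 member probe sets and 14 to 18 other methylation genes over the 4 populations. The member counts were 9 to 13 for CD27+ against CD27- CMP, 8 to 13 for GMP against MEP, 1 to 2 for CD27+ CMP against GMP, 0 to 0 for CD27- CMP against MEP, 10 to 15 for CD27+ CMP against MEP, 7 to 11 for CD27- CMP against GMP, 13 to 14 for the CD27+ against the CD27- populations, and 0 to 1 for the inequality of the CMP and committed differences. Array weights, whose estimate did not converge and ran from 1.6e-07 for MEP replicate 2 to 52.2 for GMP replicate 1, raised the counts to 20 member probe sets and 41 other genes over the 4 populations, 6 for CD27+ CMP against GMP, 18 for CD27- CMP against GMP and 1 for the inequality. Under them Dnmt1 1435122_x_at (0.18) and Uhrf1 1415810_at (0.22) turned from lower to higher in CD27- CMP against GMP. The range filter, which left 22028 probe sets to adjust over, gave 2 for CD27+ CMP against GMP and 1 for the inequality. Fits on the compared populations alone gave 9 for CD27+ against CD27- CMP and 0 for CD27+ CMP against GMP. With the mean of probe sets per gene, counts are of genes out of 9: 5 over the 4 populations, 6 in the CMP gate, 5 between GMP and MEP, 6 between CD27+ CMP and MEP, 4 between CD27- CMP and GMP and 7 between the CD27+ and CD27- populations. Replicate numbers paired arrays of MEP with GMP and of GMP with CD27+ CMP; 9 of 12 arrays were closest to an array of their own number. With replicate number as a block no member call of MEP against GMP or of GMP against CD27+ CMP changed, and of the other genes named, Ung and Mat2b did not pass between GMP and MEP. Between CD27+ CMP and MEP, whose same-numbered arrays correlated at 0.09 to 0.40, the block ended the calls of Dnmt3a 1423064_at and Tet2 1455300_at (adjusted p = 0.055 and 0.064). There it added Dnmt1 1447877_x_at (adjusted p = 0.049). In the CMP gate it ended the calls of the same Dnmt3a and Tet2 probe sets (adjusted p = 0.058 and 0.073). Over all comparisons the block ended 4 member calls and added 5, and the inequality gave 1. Beyond the range filter and the fits on fewer samples, the cause of these changes was not tested.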
